A study of Homo sapiens with 24 samples.

Results

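The SR proteins and the heterogeneous nuclear ribonucleoproteins (hnRNPs) are the main families of RNA-binding proteins that steer pre-mRNA splicing. They were followed here as 41 gene symbols, 12 of the form SRSF plus a number and 29 that begin with HNRNP, out of 25277 symbols in the table. The rule uses the symbol alone and no measured value, although the families were chosen with earlier results of these data known. SRSF10 alone had 2 lines in the table, which differed by at most 0.055 on the log2 scale, and its line of higher mean was used. Of the 41, 37 passed the filter on low values (12 SR and 25 hnRNP symbols), and the other 4 (HNRNPA1P10, HNRNPCL1, HNRNPCL2 and HNRNPKP3) were listed at 0 in every sample.

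The study knocked down POM121, a nucleoporin that helps anchor the nuclear pore complex in the membrane, in a pair of human prostate cancer sublines and read poly(A) RNA by sequencing. Cells named 22Rv1DR in the sample titles are an aggressive subline of 22Rv1, and DU145DR cells one of DU145. Both sublines were given siPOM121 construct 2 or siPOM121 construct 1, commercial siRNAs against POM121, or the treatment the labels call Control and describe no further. The labels write knockout for the siRNA arms, but siRNA lowers a transcript and does not delete the gene. With 2 lanes for every library, the 24 samples come from 12 libraries, 2 in each of the 6 groups. In 22Rv1DR these are 4C and 5C (construct 2), 4B and 5B (construct 1) and 4A and 5A (control). In DU145DR they are 1C and 2C (construct 2), 1B and 2B (construct 1) and 1A and 2A (control). The labels do not state whether both libraries of a group were grown separately, so p-values here reflect library-to-library spread, which may be technical.

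As background, SR proteins carry RNA recognition motifs and a tail rich in arginine and serine, and they bind exonic enhancers and help the spliceosome assemble on nearby splice sites. Many hnRNPs bind silencer elements and oppose them, so that the balance of both families sets which exons are kept. SR proteins are phosphorylated by SRPK and CLK kinases and carried into the nucleus by TNPO3, while TNPO1 carries HNRNPA1 and its relatives. Transcripts of many family members contain poison exons, whose inclusion sends the RNA to decay, and each symbol here has a single value that does not separate those forms from productive mRNA.

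RefSeq promoters (build GRCh38.p14, 250 bases before to 50 after the annotated start) matched 34 of the 41 members, all but HNRNPA1, HNRNPA1P10, HNRNPA1P33, HNRNPA3P1, HNRNPKP3, HNRNPU-AS1 and SRSF2. They were searched on both strands for CACGTG, the E-box bound by MYC with MAX and by USF factors, since POM121 has been tied to nuclear import of MYC. The string occurred in 7 of the 34, or 20.6%, and in 7.43% of all 27305 promoters of the same length. The 7 are HNRNPA3, HNRNPD, HNRNPDL, HNRNPH2, HNRNPH3, HNRNPM and HNRNPUL1. Member promoters were also richer in G and C, with a median of 63.8% against 58.3% over all promoters. The 250 bases before the start are shown, with CACGTG in capitals, for SRSF1 (chr17:58007247-58007496, minus strand), HNRNPM (chr19:8444725-8444974, plus strand), HNRNPD (chr4:82373992-82374241, minus strand) and HNRNPH2 (chrX:101407972-101408221, plus strand). SRSF1 is shown as the member with the lowest fold change past the threshold in DU145DR, and HNRNPM as the one in 22Rv1DR. HNRNPD and HNRNPH2 are shown as members whose response differed between the lines. SRSF3 (line difference -0.41) and HNRNPAB (-0.26) differed as well, hold no CACGTG and are not shown.
SRSF1: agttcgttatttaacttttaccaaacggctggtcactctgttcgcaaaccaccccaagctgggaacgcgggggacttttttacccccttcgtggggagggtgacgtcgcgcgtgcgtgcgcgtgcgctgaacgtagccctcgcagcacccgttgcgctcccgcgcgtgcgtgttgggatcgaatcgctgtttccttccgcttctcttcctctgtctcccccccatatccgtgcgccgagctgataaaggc
HNRNPM: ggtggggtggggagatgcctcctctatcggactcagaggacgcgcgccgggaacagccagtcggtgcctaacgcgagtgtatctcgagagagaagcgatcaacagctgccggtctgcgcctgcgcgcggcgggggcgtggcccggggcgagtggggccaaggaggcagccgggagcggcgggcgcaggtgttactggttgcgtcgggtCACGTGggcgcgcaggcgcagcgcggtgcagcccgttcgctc
HNRNPD: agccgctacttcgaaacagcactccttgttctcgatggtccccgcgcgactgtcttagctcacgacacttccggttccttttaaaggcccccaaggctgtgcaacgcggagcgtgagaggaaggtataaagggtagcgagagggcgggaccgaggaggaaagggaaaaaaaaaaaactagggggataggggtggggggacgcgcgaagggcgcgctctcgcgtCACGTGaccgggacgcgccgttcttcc
HNRNPH2: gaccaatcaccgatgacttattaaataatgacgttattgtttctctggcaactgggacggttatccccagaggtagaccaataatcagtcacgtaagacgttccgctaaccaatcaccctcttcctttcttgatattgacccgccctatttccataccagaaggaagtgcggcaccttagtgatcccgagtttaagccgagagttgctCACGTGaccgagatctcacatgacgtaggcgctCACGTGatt
HNRNPH2 holds CACGTG at 2 places, starting at -42 and -9 from the start. HNRNPM has it at -42 and HNRNPD at -27. The SRSF1 window, including its 50 bases after the start, holds neither this string nor any of the other 4 searched. CCAAT, the box bound by NF-Y, was found in 18 of the 34 members (52.9%, against 35.7% of all promoters), TATAAA in 14.7% against 12%, CCGGAAG, an ETS-type string, in 14.7% against 10.7%, and GCGCGC in 50% against 18.8%. Among members lower in 22Rv1DR, 5 of the 19 with a promoter held CACGTG (26.3%), among those not lower 2 of 15 did (13.3%), and among those lower in both lines 1 of 9 did (11.1%). The 15 include HNRNPCL1 and HNRNPCL2, which were at 0 in every sample and were not tested. These matches describe letters in a window and were not tested for binding.

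The knockdown was seen in each library. POM121 had 6.73 and 7.43 FPKM with construct 2 and 7.68 and 7.81 FPKM with construct 1, against 38.5 and 37.8 FPKM in control libraries of 22Rv1DR, where the groups did not overlap (log2 fold change -2.37 ± 0.05, SE). The DU145DR values of POM121 were 12.5 and 13.2 FPKM with construct 2 and 13.4 and 13.5 FPKM with construct 1, against 21.6 and 21.3 FPKM in control libraries (-0.71 ± 0.05), again with no overlap. POM121C, a near-identical gene whose reads may be split with POM121, had log2 fold changes of -2.58 ± 0.06 in 22Rv1DR and -0.71 ± 0.06 in DU145DR. Prostate and epithelial markers set the lines apart: HOXB13, a prostate homeobox factor, had 34.0 to 38.7 FPKM in 22Rv1DR and was listed at 0 in DU145DR, and CDH1 was at 0 in DU145DR although EPCAM, KRT8 and KRT18 were present in both. PTPRC, CD3E, PECAM1 and VWF, markers of blood and endothelium, and COL1A2 and DCN, of stroma, were at 0 in every library. Other markers on that list were not: CD68 had 12.5 to 15.7 FPKM in DU145DR and 1.61 to 2.53 FPKM in 22Rv1DR. COL1A1 and ACTA2 were above 0 in both lines, at 1.04 to 2.93 and 1.08 to 2.15 FPKM in DU145DR. In 22Rv1DR they had 7.65 to 8.95 and 2.88 to 3.94 FPKM. The 10 markers of other cell types summed to 59.3 to 69.3 FPKM in siPOM121 and 56.1 to 56.8 FPKM in control libraries of 22Rv1DR, mostly LUM. In DU145DR they summed to 16.0 to 17.2 and 17.6 to 17.8 FPKM, mostly CD68. The 4C and 5C libraries stood apart from each other: their median absolute difference over all symbols tested was 0.152 on the log2 scale, against 0.0433 to 0.0551 in the other 5 groups. Ribosomal protein genes took 18.3% of summed FPKM in 4C and 12.1% in 5C, against 16.4% to 16.9% with construct 1 and 14.8% to 15% in 22Rv1DR controls, and their part in the results was not tested. Among the 22Rv1DR libraries, 4A shared its lanes with DU145DR and the other 5 were read on another pair, so lane pair and group are partly confounded there.

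After POM121 siRNA, members of both families were lower in both lines, with more of them past the test in 22Rv1DR. Taking the mean of both constructs minus control, 22 of the 37 tested members were lower in 22Rv1DR and 3 were higher, where 20.4% of the 13622 symbols tested were lower and 15.2% higher (limma on log2 FPKM, Benjamini-Hochberg adjusted p under 0.05, 2 libraries a group). Values after ± are standard errors of log2 fold changes. In DU145DR 10 members were lower and 0 higher, where 9.37% of all symbols were lower and 14.5% higher. Symbols listed at 0 throughout a line stay in its total and cannot be called there, which lowers the shares over all symbols. The members' median log2 fold change was -0.24 in 22Rv1DR and -0.09 in DU145DR, beside -0.02 and 0.00 over all symbols tested. By family, 7 of 12 SR and 15 of 25 hnRNP members were lower in 22Rv1DR, and 5 of 12 and 5 of 25 in DU145DR. Without 4A, which leaves 22Rv1DR on 1 pair of lanes, 18 members were called there. The share over all symbols without 4A is not set beside that count. In bulk RNA, fewer cells of a kind and less RNA per cell cannot be told apart.

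The 41 members together took 0.632% to 0.691% of all summed FPKM in the 4 siPOM121 libraries of 22Rv1DR and 0.751% to 0.793% in its controls. In DU145DR they took 0.785% to 0.802% after siPOM121 and 0.852% to 0.853% in controls. The summed level of the SR members was 685 to 702 FPKM after siPOM121 and 800.5 to 812 FPKM in controls of 22Rv1DR, and that of the hnRNP members 1990.4 to 2093 and 2361 to 2449 FPKM. In DU145DR the SR sums were 672 to 685 and 746 FPKM, and the hnRNP sums 2227 to 2278 and 2381 to 2383 FPKM. The siPOM121 libraries lay below the controls in each of these sums.

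**Figure D1:**
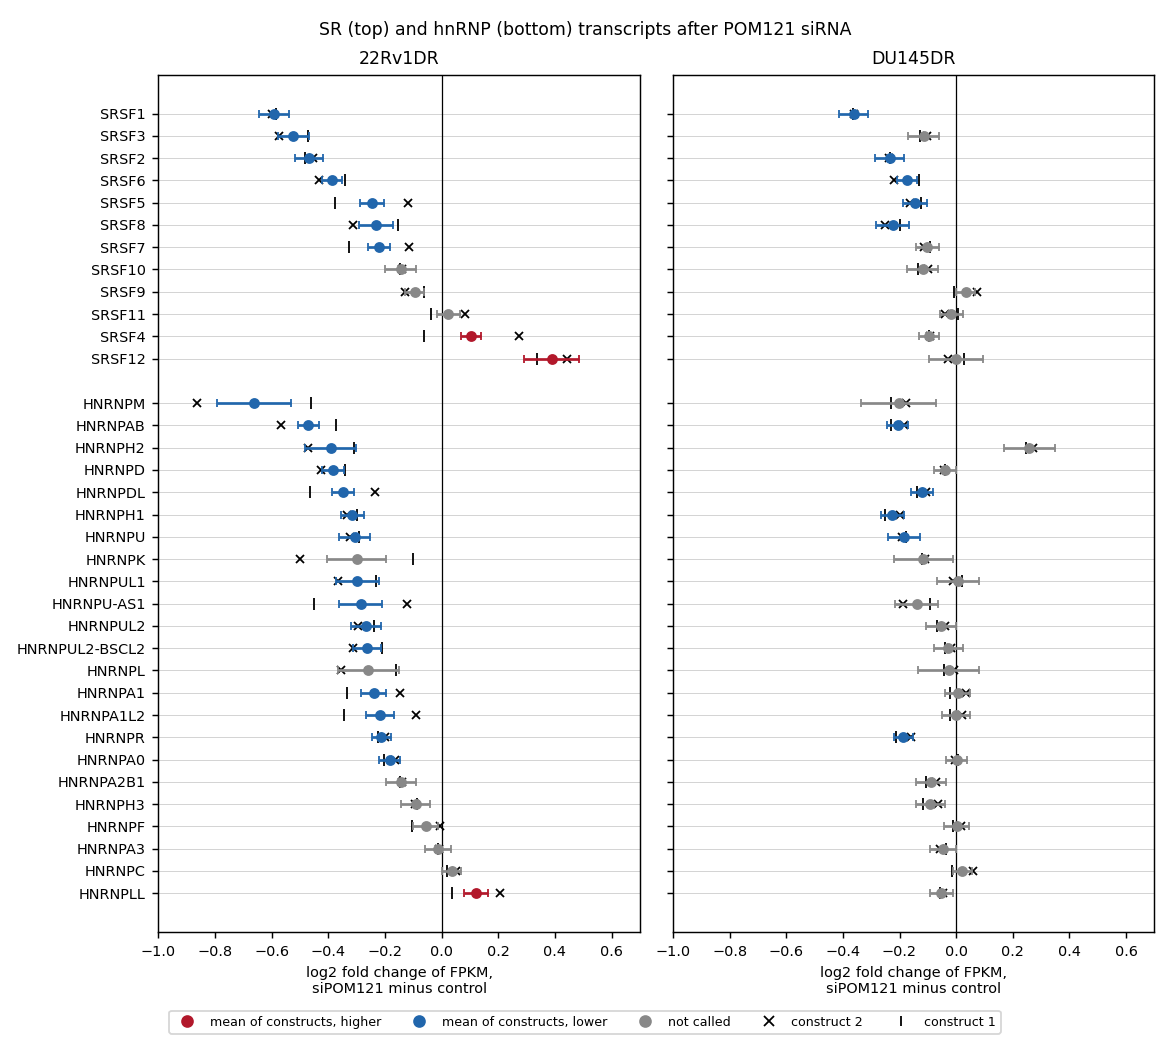
Log2 fold change of each tested member (rows, SR above hnRNP, without the pseudogenes HNRNPA1P33 and HNRNPA3P1) after POM121 siRNA minus control, in 22Rv1DR (left) and DU145DR (right). Circles are the mean of both constructs with SE bars, coloured by the call (red higher, blue lower, grey not called), crosses are construct 2 and ticks construct 1; in 22Rv1DR most circles lie left of 0, down to -0.66 for HNRNPM, and in DU145DR the lowest is SRSF1 at -0.36.

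Among SR proteins, SRSF1, the founding member and a shuttling activator of exon inclusion, was lower in both lines with every siPOM121 library below both controls. In 22Rv1DR it had 22.7 and 25.7 FPKM with construct 2 and 23.9 and 24.9 FPKM with construct 1, against 37.8 and 35.5 FPKM in control libraries. SRSF1 in DU145DR had 58.7 and 57.5 FPKM with construct 2 and 58.4 and 57.5 FPKM with construct 1, against 74.4 and 74.8 FPKM in control libraries. These are 0.664 and 0.778 times the control level, log2 fold changes of -0.59 ± 0.05 and -0.36 ± 0.05 (SE; adjusted p = 8.49e-05 and 0.00141). The call held when any 1 of the 12 libraries was left out. In the GENCODE v29 transcripts 59.0% of the 50-base windows of the longest SRSF1 transcript also lie in transcripts of other genes, chiefly AC015813.2. How the counting shared these reads is therefore uncertain. Window shares here rest on the longest transcript of each member, which is not always protein coding.

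SRSF2, an SR protein that stays in the nucleus, followed the same pattern. It had 79.7 and 90.1 FPKM with construct 2 and 82.9 and 83.5 FPKM with construct 1, against 118 and 114 FPKM in control libraries of 22Rv1DR. In DU145DR it had 132 and 128 FPKM with construct 2 and 133 and 128 FPKM with construct 1, against 152 and 155 FPKM in control libraries, with no overlap between siPOM121 and control in either line. The log2 fold changes were -0.47 ± 0.05 and -0.24 ± 0.05 (adjusted p = 0.000200 and 0.00896). The call in DU145DR was lost without 1A or 2A, with an adjusted p of up to 0.0778. SRSF2 shares 29.5% of its windows with MFSD11, which overlaps it, and the library kit does not keep the strand. SRSF8, a close relative of SRSF2, had 6.27 and 7.25 FPKM with construct 2 and 7.40 and 7.65 FPKM with construct 1, against 8.42 and 8.31 FPKM in control libraries of 22Rv1DR. The DU145DR values of SRSF8 were 12.1 and 12.5 FPKM with construct 2 and 12.7 and 12.7 FPKM with construct 1, against 14.9 and 14.4 FPKM in control libraries. It was lower in both lines (-0.23 ± 0.06 and -0.22 ± 0.06, adjusted p = 0.0141 and 0.0227). Leaving out 4A or 5A ended the call in 22Rv1DR (adjusted p up to 0.0868), and leaving out 1A, 2A, 1B, 2B or 1C ended it in DU145DR (up to 0.160).

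SRSF3, the smallest SR protein and an adaptor for mRNA export, had 53.3 and 46.5 FPKM with construct 2 and 52.6 and 54.2 FPKM with construct 1, against 76.1 and 72.2 FPKM in control libraries of 22Rv1DR. The DU145DR libraries had 59.6 and 62.3 FPKM with construct 2 and 60.2 and 59.6 FPKM with construct 1, against 64.4 and 66.5 FPKM in control libraries. Its siPOM121 libraries lay below the controls in both lines, but SRSF3 passed the test only in 22Rv1DR (-0.52 ± 0.06, adjusted p = 0.000192, against -0.11 ± 0.06, adjusted p = 0.170). The DU145DR value passed at the same size without 4C or 5C. SRSF6, a longer SR protein, had 34.6 and 35.1 FPKM with construct 2 and 37.1 and 37.4 FPKM with construct 1, against 47.9 and 46.3 FPKM in control libraries of 22Rv1DR. SRSF6 in DU145DR had 33.2 and 32.3 FPKM with construct 2 and 35.3 and 34.4 FPKM with construct 1, against 38.6 and 37.8 FPKM in control libraries. It was lower in both lines without overlap (-0.39 ± 0.04 and -0.17 ± 0.04, adjusted p = 9.84e-05 and 0.00688), although the DU145DR call was lost without 1A (adjusted p = 0.0685).

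**Figure D2:**
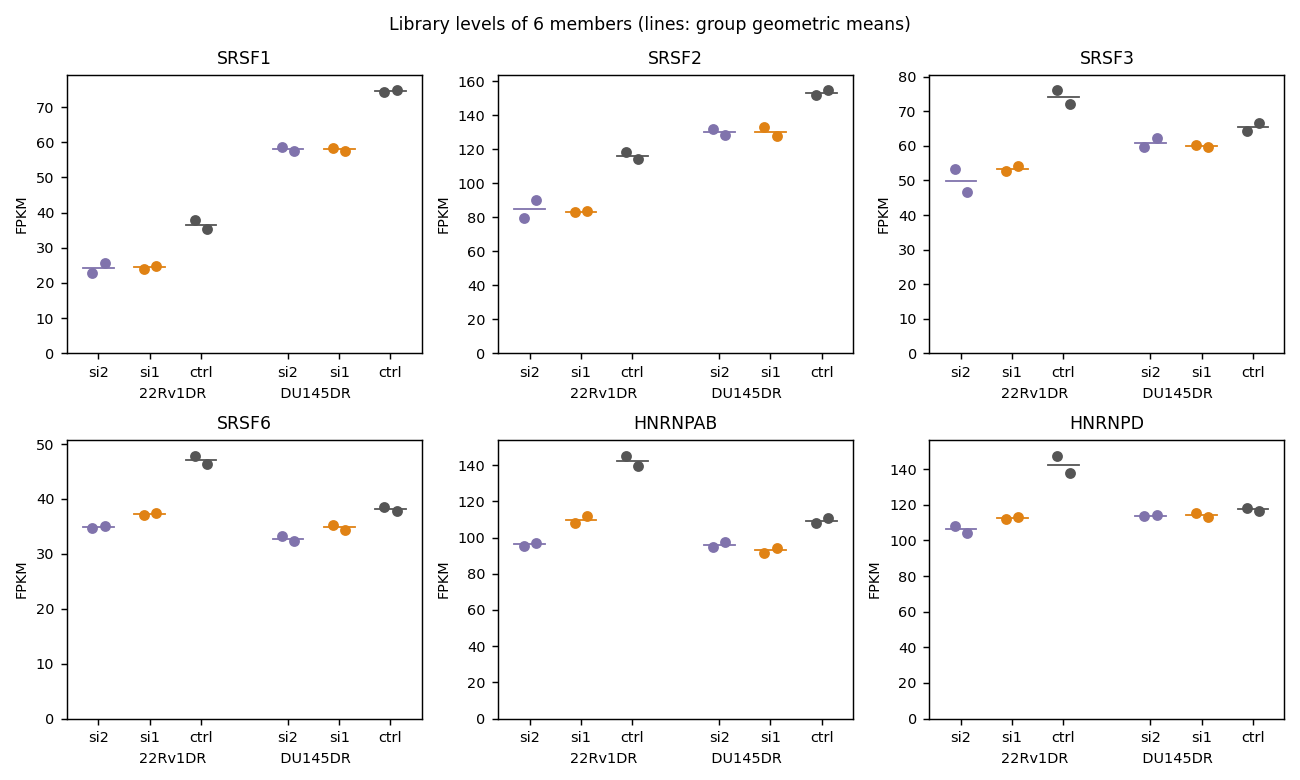
Level in FPKM (vertical axis, from 0) of 6 members in each library (points) of construct 2 (si2), construct 1 (si1) and control (ctrl), in 22Rv1DR (left in each panel) and DU145DR (right), with bars at the geometric mean of each group. In all 6 panels the 22Rv1DR siPOM121 points lie below the controls, and HNRNPD differs little in DU145DR.

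SRSF5, one of the longer SR proteins, and SRSF7, an export adaptor like SRSF3, were lower in 22Rv1DR (-0.25 ± 0.04 and -0.22 ± 0.04). They also differed between the constructs there, and construct 2 alone did not pass against control for either (-0.12 and -0.12). SRSF7 had 55.7 and 54.6 FPKM with construct 2 and 47.0 and 48.5 FPKM with construct 1, against 58.1 and 61.5 FPKM in control libraries of 22Rv1DR, and its siPOM121 libraries lay below the controls. In DU145DR SRSF5 had 78.6 and 85.5 FPKM with construct 2 and 83.7 and 84.8 FPKM with construct 1, against 91.5 and 92.3 FPKM in control libraries (-0.14 ± 0.04, adjusted p = 0.0352), a call lost when any 1 of 9 libraries (all but 2C, 4C and 5C) was left out, with an adjusted p of up to 0.173. SRSF7 did not pass there (-0.10 ± 0.04, adjusted p = 0.103). SRSF10, a repressor-type SR protein regulated by dephosphorylation, had 23.1 to 25.7 FPKM after siPOM121 and 26.5 to 27.2 FPKM in controls of 22Rv1DR and did not pass in either line (-0.14 ± 0.05 and -0.12 ± 0.05), though it passed in 22Rv1DR without 4C (-0.18, adjusted p = 0.00991) and on the lower-numbered lanes (-0.19, adjusted p = 0.0356). SRSF11, an SR-related protein, did not pass in either (0.02 ± 0.04 and -0.02 ± 0.04).

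SRSF9, a relative of SRSF1, did not pass in either line (-0.10 ± 0.03, adjusted p = 0.0516, and 0.03 ± 0.03, adjusted p = 0.555). Its 4 siPOM121 libraries in 22Rv1DR lay below both controls, and the same difference passed there without 4C or 5C (adjusted p = 0.0176 and 0.0166), with 22Rv1DR fitted alone (0.0166), with no filter (0.0457) and with a pseudocount of 0.1 or 1 (0.0317 and 0.0394). SRSF4 and SRSF12 were the SR symbols called higher, both in 22Rv1DR. SRSF12, a relative of SRSF10 with restricted expression, was near the floor of 1 FPKM: it had 2.11 and 1.77 FPKM with construct 2 and 1.79 and 1.81 FPKM with construct 1, against 1.32 and 1.54 FPKM in control libraries of 22Rv1DR (0.39 ± 0.10, adjusted p = 0.0129). Without 4A the call was lost (adjusted p = 0.131). In DU145DR its 4 siPOM121 libraries overlapped the controls (0.00 ± 0.10). SRSF4 averaged 0.10 ± 0.03 over both constructs in 22Rv1DR, a call lost without any 1 of 10 libraries (all but 4C and 5C; adjusted p up to 0.177), and its values differed by construct.

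Among hnRNPs, HNRNPM, a regulator of alternative exons in epithelial and mesenchymal cells, had the lowest fold change of all members in 22Rv1DR. It had 75.1 and 116 FPKM with construct 2 and 122 and 125 FPKM with construct 1, against 171 and 169 FPKM in control libraries there, 0.632 times the control level (-0.66 ± 0.13, adjusted p = 0.00452). The value in 4C was far below the other 3 siPOM121 libraries. Without 4C the log2 fold change was -0.51 and without 5C -0.82, and both passed. In DU145DR HNRNPM had 164 and 163 FPKM with construct 2 and 156 and 158 FPKM with construct 1, against 189 and 180.1 FPKM in control libraries (-0.20 ± 0.13, adjusted p = 0.310). That difference did not pass beside the spread shared with 22Rv1DR, and passed when DU145DR was fitted alone (adjusted p = 0.0211) or without 4C or 5C.

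HNRNPAB, an A/B-type protein that binds RNA and DNA, was lower in both lines with no overlap. It had 95.3 and 97.1 FPKM with construct 2 and 108 and 112 FPKM with construct 1, against 145 and 139.7 FPKM in control libraries of 22Rv1DR (-0.47 ± 0.04, adjusted p = 4.37e-05). In DU145DR it had 94.8 and 97.5 FPKM with construct 2 and 91.6 and 94.5 FPKM with construct 1, against 108 and 111 FPKM in control libraries (-0.21 ± 0.04, adjusted p = 0.00357). HNRNPD, known as AUF1 and tied to decay of AU-rich mRNAs, had 108 and 104 FPKM with construct 2 and 112 and 113 FPKM with construct 1, against 148 and 138 FPKM in control libraries of 22Rv1DR (-0.38 ± 0.04, adjusted p = 0.000161). The DU145DR libraries had 114 and 114 FPKM with construct 2 and 115 and 113 FPKM with construct 1, against 118 and 116 FPKM in control libraries, where the groups barely separated (-0.04 ± 0.04, adjusted p = 0.520). HNRNPDL, its close relative, had 34.7 and 35.1 FPKM with construct 2 and 33.4 and 34.8 FPKM with construct 1, against 37.5 and 37.5 FPKM in control libraries of DU145DR, and was lower in both lines (-0.35 ± 0.04 in 22Rv1DR and -0.12 ± 0.04 in DU145DR). The DU145DR call (adjusted p = 0.0484) was lost without any 1 of 10 libraries, all but 4C and 5C (adjusted p up to 0.197).

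The H and F proteins bind runs of guanine and differed in their calls. HNRNPH1 had 137 and 126 FPKM with construct 2 and 133 and 137 FPKM with construct 1, against 169 and 162 FPKM in control libraries of 22Rv1DR. The DU145DR values of HNRNPH1 were 131 and 129 FPKM with construct 2 and 124 and 127 FPKM with construct 1, against 149 and 149.9 FPKM in control libraries. It was lower in both (-0.31 ± 0.04 and -0.23 ± 0.04, adjusted p = 0.000566 and 0.00425) and kept both calls without any 1 library. HNRNPH2 had 11.0 and 12.6 FPKM with construct 2 and 12.8 and 13.4 FPKM with construct 1, against 15.8 and 16.8 FPKM in control libraries of 22Rv1DR, where it was lower (-0.39 ± 0.09, adjusted p = 0.00876; 0.0863 without 5A). HNRNPH2 in DU145DR had 17.0 and 15.3 FPKM with construct 2 and 17.1 and 14.7 FPKM with construct 1, against 14.3 and 12.5 FPKM in control libraries, all 4 siPOM121 values above both controls (0.26 ± 0.09, adjusted p = 0.0654). The DU145DR difference did not pass, but passed with quantile normalization (0.24, adjusted p = 0.0409), with median centring (0.25, adjusted p = 0.0402) and without 2B, 4C or 5C (adjusted p of 0.0441, 0.0337 and 0.0337). The DU145DR difference also passed with a replicate block, described below, although the labels do not pair the libraries. About 14.5% of the HNRNPH2 windows are shared with the readthrough gene RPL36A-HNRNPH2, and lanes of a library differed by up to 0.61 on the log2 scale for this gene. HNRNPH3 and HNRNPF did not pass in either line (-0.09 ± 0.05 and -0.09 ± 0.05; -0.06 ± 0.04 and 0.00 ± 0.04).

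HNRNPU, a nuclear scaffold protein that binds chromatin and RNA, had 71.9 and 83.1 FPKM with construct 2 and 77.9 and 80.4 FPKM with construct 1, against 98.4 and 95.3 FPKM in control libraries of 22Rv1DR. In DU145DR it had 91.6 and 94.0 FPKM with construct 2 and 91.8 and 95.5 FPKM with construct 1, against 104 and 108 FPKM in control libraries. It was lower in both (-0.31 ± 0.06 and -0.18 ± 0.06, adjusted p = 0.00282 and 0.0401). In DU145DR the call was lost without any 1 of 10 libraries, all but 4C and 5C (adjusted p up to 0.225). Its relatives HNRNPUL1 and HNRNPUL2, tied to the DNA damage response, passed in 22Rv1DR, where they were lower (-0.30 ± 0.07 and -0.27 ± 0.05), and did not pass in DU145DR (0.01 ± 0.07 and -0.05 ± 0.05). The difference between the lines did not pass for either (-0.30 ± 0.11, adjusted p = 0.0653, and -0.21 ± 0.08, adjusted p = 0.0682). It passed for HNRNPUL1 without 4C (-0.22, adjusted p = 0.00278), without 5C (-0.39, adjusted p = 0.000173) and with median centring (adjusted p = 0.0449), and for HNRNPUL2 without 4C (-0.17, adjusted p = 0.0320) and without 5C (-0.26, adjusted p = 0.00464). HNRNPUL1 lost its 22Rv1DR call without 4A or 5A (adjusted p up to 0.0860). HNRNPR, close to SYNCRIP in sequence, had 93.5 and 96.4 FPKM with construct 2 and 91.5 and 91.7 FPKM with construct 1, against 106 and 106 FPKM in control libraries of DU145DR and was lower in both lines (-0.21 ± 0.03 and -0.19 ± 0.03, adjusted p = 0.00140 and 0.00382), with calls that held without any 1 library.

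The A proteins bind exonic silencers. HNRNPA1, the best known of them, had 165 and 173 FPKM with construct 2 and 144 and 152 FPKM with construct 1, against 191 and 183 FPKM in control libraries of 22Rv1DR. The DU145DR values of HNRNPA1 were 139 and 141 FPKM with construct 2 and 131 and 138 FPKM with construct 1, against 133 and 139 FPKM in control libraries. It was lower in 22Rv1DR (-0.24 ± 0.04, adjusted p = 0.00299) and its groups overlapped in DU145DR (0.01 ± 0.04). With construct 2 alone it did not pass in 22Rv1DR (-0.15). HNRNPA0, which also binds AU-rich RNA, was lower in 22Rv1DR as well (-0.18 ± 0.04; 0.00 ± 0.04 in DU145DR). HNRNPA2B1, a reader of sorting motifs, did not pass in either line (-0.14 ± 0.05, adjusted p = 0.0591, and -0.09 ± 0.05, adjusted p = 0.264), but passed in 22Rv1DR without 5C (-0.18, adjusted p = 0.00568). HNRNPA3 did not pass in either (-0.01 ± 0.05 and -0.05 ± 0.05). HNRNPC, which coats uridine-rich stretches, had 202 to 208 FPKM after siPOM121 and 198 to 203 FPKM in controls of 22Rv1DR and did not pass in either line (0.04 ± 0.03 and 0.02 ± 0.03). The 95% interval of its 22Rv1DR difference was -0.04 to 0.11.

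HNRNPK, a poly(C)-binding protein, and HNRNPL, which binds CA repeats, did not pass in 22Rv1DR (-0.30 ± 0.10, adjusted p = 0.0507, and -0.26 ± 0.11, adjusted p = 0.0927). HNRNPK had 135 and 96.2 FPKM with construct 2 and 149 and 152 FPKM with construct 1, against 162 and 160.2 FPKM in control libraries of 22Rv1DR. HNRNPL had 185 and 131 FPKM with construct 2 and 176 and 179 FPKM with construct 1, against 198 and 199.6 FPKM in control libraries of 22Rv1DR. In both, 5C lay far below 4C while all 4 siPOM121 libraries lay below the controls. Without 5C the differences were smaller and passed (HNRNPK -0.18, adjusted p = 0.000988; HNRNPL -0.13, adjusted p = 0.0117), and without 4C they were larger and passed (-0.42 and -0.38). HNRNPLL, an HNRNPL relative known for CD45 splicing in lymphocytes, was the hnRNP called higher in 22Rv1DR. It had 14.3 and 13.6 FPKM with construct 2 and 12.1 and 12.7 FPKM with construct 1, against 12 and 12.1 FPKM in control libraries, and construct 1 overlapped the controls (0.12 ± 0.04, adjusted p = 0.0475). Its call was lost without any 1 of 10 libraries, all but 4C and 5C (adjusted p up to 0.179).

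Some symbols are not protein coding or share reads by name, and their counts and fold changes are uncertain for that reason. HNRNPU-AS1, HNRNPA1L2 and HNRNPUL2-BSCL2 are 3 of the 22 members counted as lower in 22Rv1DR. HNRNPU-AS1, an RNA antisense to HNRNPU, had 11.5 and 10.2 FPKM with construct 2 and 8.46 and 8.82 FPKM with construct 1, against 11.8 and 11.8 FPKM in control libraries of 22Rv1DR. HNRNPU-AS1 in DU145DR had 1.96 and 2.32 FPKM with construct 2 and 2.24 and 2.33 FPKM with construct 1, against 2.38 and 2.48 FPKM in control libraries, and without strand its reads cannot be told from those of an overlapping gene. HNRNPA1L2, a copy of HNRNPA1 with 47.6% of its windows in HNRNPA1, had 48.4 and 53.2 FPKM with construct 2 and 42.0 and 43.2 FPKM with construct 1, against 54.2 and 54.0 FPKM in control libraries of 22Rv1DR. HNRNPUL2-BSCL2, a readthrough with 98.8% of its windows shared, had 20.9 and 23.1 FPKM with construct 2 and 24 and 23.2 FPKM with construct 1, against 28.3 and 26.4 FPKM in control libraries of 22Rv1DR, a range close to that of HNRNPUL2 (20.6 to 23.4 and 26.6 to 27.2 FPKM). The pseudogenes HNRNPA1P33 and HNRNPA3P1 were listed at 0 in all 22Rv1DR libraries. In DU145DR HNRNPA1P33 had 3.81 and 1.94 FPKM with construct 2 and 2.42 and 2.02 FPKM with construct 1, against 2.98 and 3.19 FPKM in control libraries, and HNRNPA3P1 had 1.19 and 1.05 FPKM with construct 2 and 1.31 and 1.19 FPKM with construct 1, against 1.37 and 1.12 FPKM in control libraries.

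All 10 members lower in DU145DR were among the 22 lower in 22Rv1DR: SRSF1, SRSF2, SRSF5, SRSF6, SRSF8, HNRNPAB, HNRNPDL, HNRNPH1, HNRNPR and HNRNPU. That is 100% of the DU145DR list and 45.5% of the 22Rv1DR list, and among all symbols tested, 576 were lower in both lines, which is 45.1% of the 1276 lower in DU145DR and 20.8% of the 2774 lower in 22Rv1DR. SRSF1, HNRNPAB, HNRNPH1 and HNRNPR kept their DU145DR call without any 1 of the 12 libraries. The counts that follow are not set beside counts over all symbols. The number called in DU145DR was 4 without 1A, 5 without 2A, 6 without 1B and 16 without 4C or 5C, and SRSF3, SRSF4, SRSF7, HNRNPK and HNRNPM (lower) and HNRNPH2 (higher) made up the added 6.

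The constructs were then taken singly. With construct 2, 19 members were lower and 3 higher in 22Rv1DR, where 20.6% and 14.5% of all symbols were. With construct 1, 18 were lower and 0 higher, where 15.2% and 12% were. Of the members lower there over both constructs, some passed singly with construct 1 only. They were HNRNPA1, HNRNPA1L2, HNRNPU-AS1, SRSF5 and SRSF7, with construct 2 values of -0.15, -0.09, -0.12, -0.12 and -0.12. HNRNPM, HNRNPH2, HNRNPUL1 and SRSF8 passed with construct 2 only, with construct 1 values of -0.46, -0.31, -0.23 and -0.15. In DU145DR construct 2 gave 8 lower and 0 higher members (5.62% and 11% of all symbols) and construct 1 gave 5 and 0 (7.62% and 12.2%). SRSF1, SRSF2, HNRNPAB, HNRNPH1 and HNRNPR were the 5 lower in DU145DR with construct 1, and construct 2 added SRSF5, SRSF6 and SRSF8. Single libraries set these counts: with construct 2 in DU145DR it was 1 without 1A, 2 without 2A, 3 without 1C and 2 without 2C, and with construct 1 it was 3 without 1B. With construct 2 in DU145DR SRSF1 kept its call without any 1 library, and with construct 1 SRSF1, HNRNPAB and HNRNPR did, while HNRNPH1 lost it without 1B (adjusted p = 0.0501) and SRSF2 without 1A, 2A, 1B or 2B (up to 0.126). Without 4C, 5C or both the counts were 11 with construct 2 and 14 with construct 1 in DU145DR, and 28 with construct 1 in 22Rv1DR. These counts with libraries left out are not set beside counts over all symbols. The comparisons with each construct share the control libraries.

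Between constructs, no member passed the test in DU145DR: construct 2 against construct 1 gave 0 higher and 0 lower with limma, with 0.00734% and 0.0147% of all symbols called, and 0 members at an unadjusted p under 0.05. The differences ranged from -0.16 to 0.30 on the log2 scale, their 95% intervals reached from -0.38 to 0.84, and without 2C 1 member was called. In 22Rv1DR construct 2 was higher than construct 1 for 7 members and lower for 1, where 7.3% and 4.28% of all symbols were. SRSF4, a longer SR protein, had 46.5 and 45.7 FPKM with construct 2 and 37.0 and 36.1 FPKM with construct 1 (difference 0.33 ± 0.04, adjusted p = 0.00226), beside 38.0 and 38.3 FPKM in controls. Construct 2 was above control for this gene (0.27 ± 0.04) and construct 1 did not pass against control (-0.06 ± 0.04), and the difference between constructs held without any 1 library.

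SRSF5 had 53.6 and 51.3 FPKM with construct 2 and 43.8 and 43.9 FPKM with construct 1 (0.26 ± 0.05, adjusted p = 0.0140), against 57.9 and 55.9 FPKM in controls. HNRNPDL had 26.3 and 25.4 FPKM with construct 2 and 22.0 and 22.1 FPKM with construct 1 (0.23 ± 0.04), against 31.3 and 29.6 FPKM in controls. For both genes construct 2 lay between construct 1 and control. SRSF7 (0.21 ± 0.05), HNRNPA1 (0.19 ± 0.05), HNRNPA1L2 (0.25 ± 0.06) and HNRNPU-AS1 (0.33 ± 0.09) shared the direction, and HNRNPAB went the other way (-0.19 ± 0.04), at 95.3 and 97.1 FPKM with construct 2 and 108 and 112 FPKM with construct 1. Leaving out 4B or 5B left 1 call, SRSF4 (SRSF5 up to 0.0975, HNRNPDL 0.104, HNRNPAB 0.143, HNRNPA1L2 0.154 and SRSF7 0.162 in adjusted p), and leaving out 5C gave 17. HNRNPA1 lost its call without any 1 library but 4C or 5C (adjusted p up to 0.252), and HNRNPU-AS1 without any but 1C, 2C or 5C (up to 0.216).

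**Figure D3:**
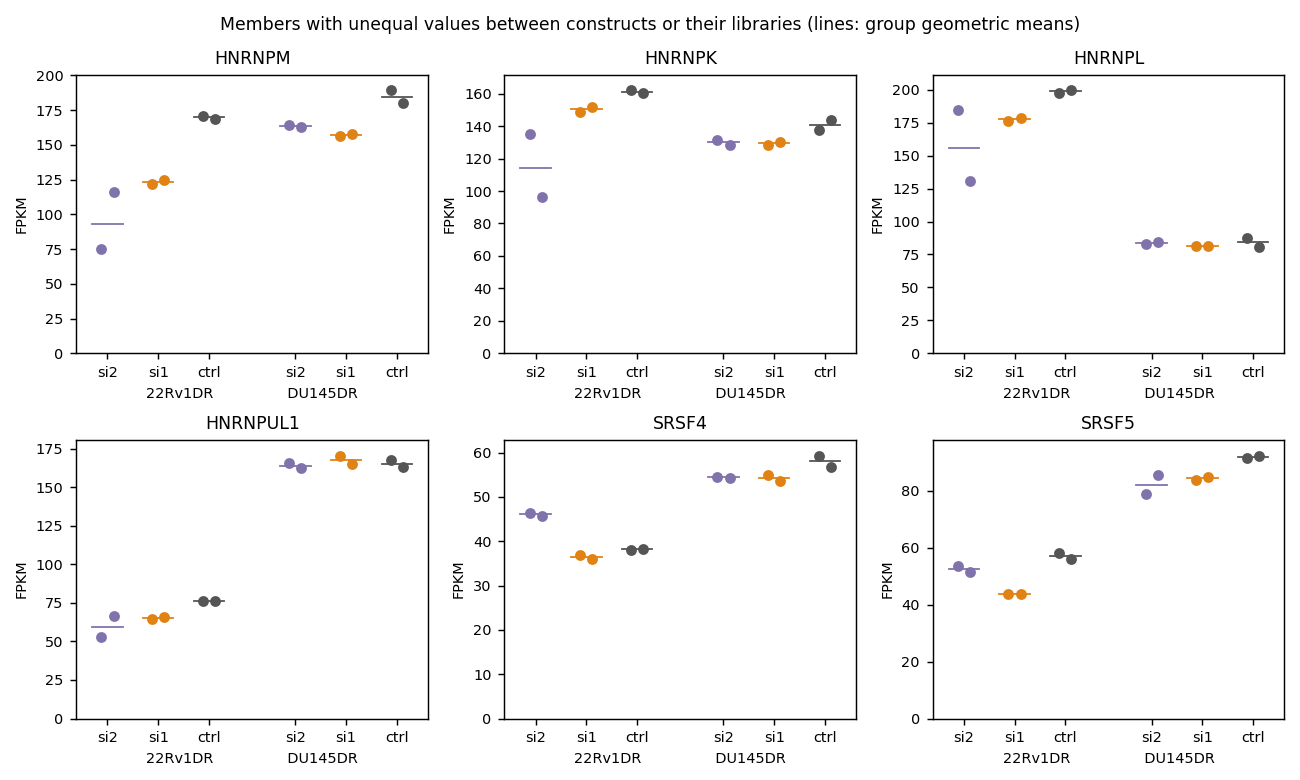
Level in FPKM (vertical axis, from 0) of 6 members in each library (points), grouped as construct 2 (si2), construct 1 (si1) and control (ctrl) in 22Rv1DR (left in each panel) and DU145DR (right), with bars at group geometric means. In 22Rv1DR the construct 2 libraries lie far apart for HNRNPM (75.1 and 116 FPKM), HNRNPK (135 and 96.2 FPKM) and HNRNPL (185 and 131 FPKM), and close together for SRSF4 (46.5 and 45.7 FPKM).

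The response differed between the lines for 13 members. By the interaction, 12 were lower and 1 higher in 22Rv1DR relative to DU145DR, where 15.9% and 8.93% of all symbols were, and the members' median difference was -0.13 beside -0.06 over all symbols tested. HNRNPH2 had the largest of them, -0.65 ± 0.13 (adjusted p = 0.00694), being lower in 22Rv1DR while all 4 siPOM121 libraries of DU145DR were above control. SRSF3 (-0.41 ± 0.08, adjusted p = 0.00643) and HNRNPD (-0.34 ± 0.05, adjusted p = 0.00305) were lower in 22Rv1DR and did not pass in DU145DR. HNRNPAB (-0.26 ± 0.05) was lower in both lines and more so in 22Rv1DR. These 4 differences held without any 1 library. The other 7 in that direction were HNRNPA1, HNRNPUL2-BSCL2, SRSF2, HNRNPDL, HNRNPA1L2, SRSF6 and HNRNPA0, besides SRSF1. HNRNPA1 (-0.25 ± 0.06; adjusted p up to 0.0846 without 1A or 4A) and SRSF4 in the other direction (0.20 ± 0.05; up to 0.0796 without 1A, 4A or 5A) followed. SRSF1 was just past the threshold (-0.23 ± 0.07, adjusted p = 0.0497), and lost the call without any 1 of 10 libraries, all but 4C and 5C (adjusted p up to 0.176). The number called was 4 without 4A, which leaves 22Rv1DR on 1 pair of lanes, 5 without 1A, 6 without 2A, 7 without 5A, 8 without 1B, 4B or 5B, 21 without 4C and 20 without 5C.

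In control cells the lines differed in most members. In 22Rv1DR controls against DU145DR controls 15 members were higher and 16 lower, where 40.3% and 42.7% of all symbols were, so the members stood near the table as a whole. The 4A library shared its lane pair with the DU145DR controls, and without 5A, within that pair, 29 members were called. The share over all symbols without 5A is not set beside that count. HNRNPL had 198 and 199.6 FPKM in 22Rv1DR control libraries and 87.5 and 80.8 FPKM in DU145DR control libraries (1.24 ± 0.12). SRSF9, a relative of SRSF1, had 284 and 286 FPKM in 22Rv1DR control libraries and 124 and 125 FPKM in DU145DR control libraries (1.19 ± 0.04). All windows of its longest transcript, a retained-intron form, lie in transcripts of GATC as well, and its other transcripts were not examined. HNRNPU-AS1 had 11.8 and 11.8 FPKM in 22Rv1DR control libraries and 2.38 and 2.48 FPKM in DU145DR control libraries (2.28 ± 0.09), HNRNPA1 191 and 183 FPKM in 22Rv1DR control libraries and 133 and 139 FPKM in DU145DR control libraries (0.45 ± 0.05) and HNRNPAB 145 and 139.7 FPKM in 22Rv1DR control libraries and 108 and 111 FPKM in DU145DR control libraries (0.38 ± 0.04).

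The members lower in 22Rv1DR controls included HNRNPA3, with 13.2 and 11.9 FPKM in 22Rv1DR control libraries and 44.9 and 45.9 FPKM in DU145DR control libraries (-1.86 ± 0.05), HNRNPUL1, with 76.5 and 76.3 FPKM in 22Rv1DR control libraries and 168 and 163 FPKM in DU145DR control libraries (-1.11 ± 0.09), SRSF1, with 37.8 and 35.5 FPKM in 22Rv1DR control libraries and 74.4 and 74.8 FPKM in DU145DR control libraries (-1.03 ± 0.06), and HNRNPF, with 73.3 and 75.4 FPKM in 22Rv1DR control libraries and 153 and 148 FPKM in DU145DR control libraries (-1.01 ± 0.05). These 9 genes were named for large differences past the threshold, and their calls held without any 1 library. The control libraries of the lines did not overlap in them. HNRNPA1P33 and HNRNPA3P1, listed at 0 in 22Rv1DR, are among the 16 called lower. Without 4A the calls of SRSF12, SRSF3, HNRNPH1, HNRNPH2 and HNRNPA3P1 were lost, with an adjusted p of up to 0.0581, 0.138, 0.0898, 0.195 and 0.146. Leaving out 1A also ended those of SRSF3, HNRNPH1 and HNRNPA3P1, leaving out 2A that of HNRNPH2, and leaving out 5A those of HNRNPH2 and HNRNPA3P1. HNRNPH1 was higher in 22Rv1DR controls by 0.15 ± 0.05, a direction that turned with quantile normalization (-0.01, adjusted p = 0.759). HNRNPA2B1 was not called between controls (0.05). It was called lower with quantile normalization (-0.46, adjusted p = 0.000722) and higher with median centring (0.22, adjusted p = 0.00272). HNRNPM (-0.37) and HNRNPU (-0.19) were gained as lower with quantile normalization, HNRNPK (0.37) as higher with median centring, and SRSF7 and HNRNPUL2-BSCL2 as higher with both. SRSF1 was lower in 22Rv1DR controls (37.8 and 35.5 FPKM) than in siPOM121 libraries of DU145DR (57.5 to 58.7 FPKM).

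Levels in FPKM are scaled by transcript length, but shared sequence leaves the order of some genes uncertain. Of the windows of the longest transcript, 100% were shared with other genes for SRSF9 and 29.1% for HNRNPA1. Over the 12 libraries HNRNPA2B1 had the highest mean of all members (356 FPKM), followed by SRSF9 (199.8 FPKM), HNRNPC (184 FPKM), HNRNPA1 (152 FPKM) and HNRNPM (149 FPKM). HNRNPA2B1 had 329.6 and 364 FPKM with construct 2 and 339 and 351 FPKM with construct 1, against 399 and 365 FPKM in control libraries of 22Rv1DR. In DU145DR it had 354 and 350.0 FPKM with construct 2 and 351 and 335 FPKM with construct 1, against 369.5 and 369.5 FPKM in control libraries. HNRNPC had 208 and 206 FPKM with construct 2 and 202 and 203 FPKM with construct 1, against 203 and 198 FPKM in control libraries of 22Rv1DR. The DU145DR values of HNRNPC were 172 and 168 FPKM with construct 2 and 162 and 161 FPKM with construct 1, against 161 and 165 FPKM in control libraries. SRSF9 had 261 and 260.3 FPKM with construct 2 and 274 and 272 FPKM with construct 1, against 284 and 286 FPKM in control libraries of 22Rv1DR. SRSF9 in DU145DR had 132 and 131 FPKM with construct 2 and 127 and 121 FPKM with construct 1, against 124 and 125 FPKM in control libraries. The order differed by line: SRSF9 was second in 22Rv1DR controls (285 FPKM, geometric mean) and at 125 FPKM in DU145DR controls. There it lay below HNRNPA2B1, HNRNPM (185 FPKM), HNRNPUL1 (165 FPKM), HNRNPC (163 FPKM), SRSF2, HNRNPF, HNRNPH1, HNRNPK and HNRNPA1. Of these 5 highest over all libraries, HNRNPM and HNRNPA1 were lower in 22Rv1DR after siPOM121, and none passed in DU145DR.

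**Figure D4:**
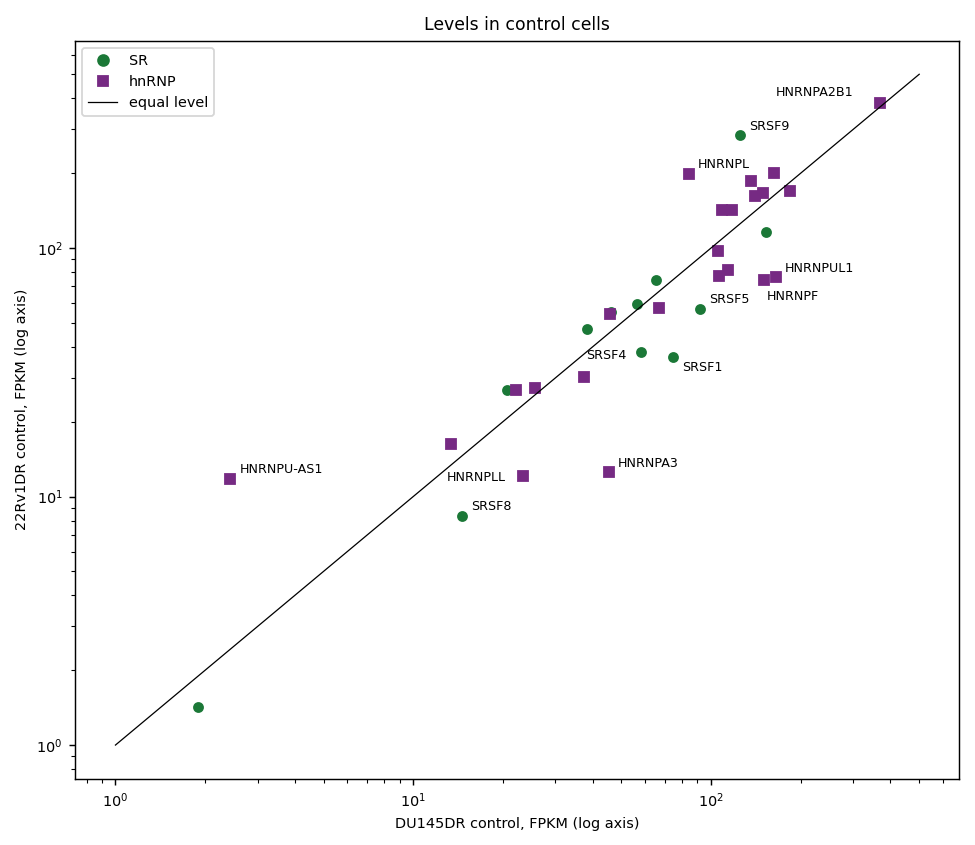
Control level of each tested member except 2 pseudogenes in 22Rv1DR (vertical log axis, FPKM) against DU145DR (horizontal log axis, FPKM), as geometric means of 2 libraries, with circles for SR and squares for hnRNP members. HNRNPA3, HNRNPF, HNRNPUL1 and SRSF1 lie below the line of equal level and SRSF9, HNRNPL and HNRNPU-AS1 above it.

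Around the families, 48 tested genes of the core spliceosome showed 32 lower and 0 higher in 22Rv1DR and 11 lower and 0 higher in DU145DR, with median log2 fold changes of -0.21 and -0.11. Over all symbols tested, 20.4% were lower and 15.2% higher in 22Rv1DR, and 9.37% and 14.5% in DU145DR. DDX23, a helicase of the U5 particle, was lower in both lines (-0.54 ± 0.04 and -0.17 ± 0.04), SF3B4, a subunit of SF3B, in 22Rv1DR (-0.54 ± 0.04), and SART1, a tri-snRNP protein, in both (-0.52 ± 0.05 and -0.18 ± 0.05). SF1, which binds the branch point, was lower in both as well (-0.36 ± 0.06 and -0.32 ± 0.06), as was PRPF31 (-0.36 ± 0.06 and -0.28 ± 0.06). Of 13 hnRNP proteins under other symbols, 6 were lower and 0 higher in 22Rv1DR, and 5 lower and 2 higher in DU145DR (medians -0.18 and -0.03). PTBP1, the polypyrimidine tract repressor, was lower in both (-0.47 ± 0.04 and -0.30 ± 0.04), as was RBMX (-0.30 ± 0.04 and -0.31 ± 0.04). SYNCRIP was lower in both (-0.21 ± 0.05 and -0.29 ± 0.05), and PCBP3, listed at 0 in 22Rv1DR, was higher in DU145DR (0.85 ± 0.09). Its DU145DR levels were near the floor of 1 FPKM, at 3.21 to 3.93 FPKM after siPOM121 and 2.24 and 1.75 FPKM in controls.

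Of the 16 SR-related proteins, SR kinases and importers, 4 were lower and 4 higher in 22Rv1DR, and 5 lower and 0 higher in DU145DR (medians -0.09 and -0.12). The shares over all symbols were 20.4% lower and 15.2% higher in 22Rv1DR, and 9.37% and 14.5% in DU145DR. SRRM2, a large SR-related spliceosome protein, was lower in both (-0.35 ± 0.04 and -0.34 ± 0.04), and so was TRA2B (-0.18 ± 0.04 and -0.27 ± 0.04), which acts with SR proteins on exonic enhancers. Its relative TRA2A was lower in DU145DR (-0.22 ± 0.05) and did not pass in 22Rv1DR (-0.06 ± 0.05). CLK4, an SR kinase, was higher in 22Rv1DR (0.51 ± 0.07). TNPO3, the SR importer, had 24.1 and 26.3 FPKM with construct 2 and 22.9 and 23.1 FPKM with construct 1, against 29.5 and 30.4 FPKM in control libraries of 22Rv1DR. In DU145DR it had 24 and 24.8 FPKM with construct 2 and 24.2 and 25.3 FPKM with construct 1, against 28.7 and 28.1 FPKM in control libraries, and it was lower in both lines (-0.32 ± 0.05 and -0.21 ± 0.05). TNPO1, the HNRNPA1 importer, had 20.1 and 16.9 FPKM with construct 2 and 19.6 and 19.9 FPKM with construct 1, against 17.1 and 16.1 FPKM in control libraries of 22Rv1DR, where it was called higher although 5C lay among the controls (0.20 ± 0.06, adjusted p = 0.0381). It had 20.2 and 21.2 FPKM with construct 2 and 20.7 and 20.9 FPKM with construct 1, against 25.0 and 25.7 FPKM in control libraries of DU145DR, where it was lower (-0.29 ± 0.06, adjusted p = 0.0114), and the lines differed (0.49 ± 0.09, adjusted p = 0.00578).

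Of 23 other splicing regulators, 4 were lower and 6 higher in 22Rv1DR and 3 lower and 2 higher in DU145DR (medians 0.00 and -0.03). The numbers lower lay near the shares over all symbols, 20.4% in 22Rv1DR and 9.37% in DU145DR. Of all symbols 15.2% and 14.5% were higher. SFPQ, a paraspeckle protein, was lower in both lines (-0.79 ± 0.08 and -0.27 ± 0.08), RBM10 was lower in 22Rv1DR (-0.45 ± 0.07), and RBM5 was lower in DU145DR (-0.20 ± 0.04). MBNL2, a muscleblind protein, was higher in both (0.49 ± 0.06 and 0.41 ± 0.06), and NOVA2 was higher in DU145DR (0.37 ± 0.07), at 1.26 to 1.47 FPKM after siPOM121 and 1.03 and 1.04 FPKM in controls, next to the floor of 1 FPKM. MYC itself had 56.4 and 78.8 FPKM with construct 2 and 78.9 and 79.5 FPKM with construct 1, against 86.1 and 87.4 FPKM in control libraries of 22Rv1DR. The DU145DR values of MYC were 113 and 103 FPKM with construct 2 and 104 and 97.0 FPKM with construct 1, against 118 and 113 FPKM in control libraries. Over both constructs it did not pass in either line (-0.26 ± 0.11, adjusted p = 0.0970, and -0.15 ± 0.11, adjusted p = 0.381), and it was lower with construct 2 in 22Rv1DR (-0.38 ± 0.13, adjusted p = 0.0419), where 4C was far below 5C.

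**Figure D5:**
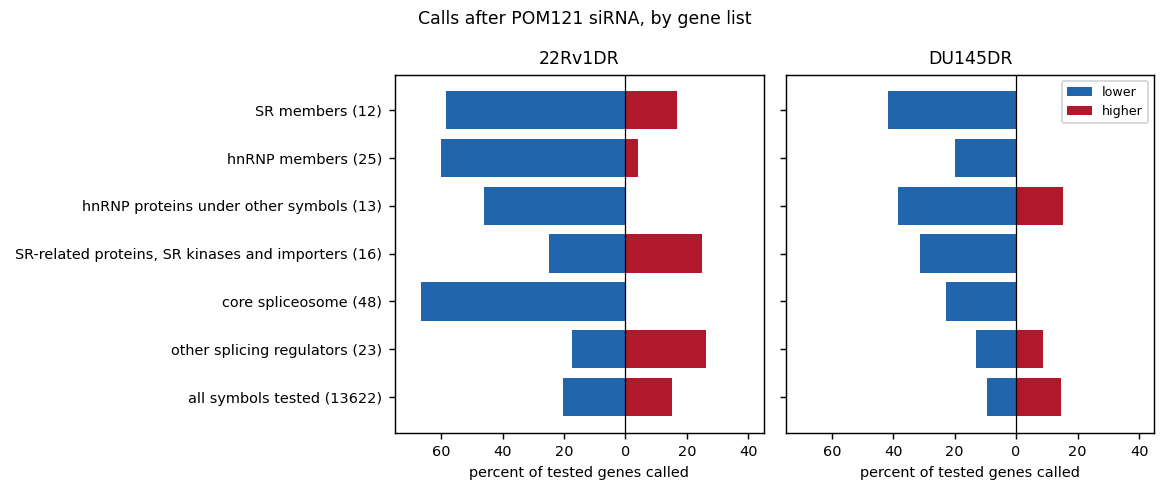
Percent of tested genes called lower (blue, left of 0) and higher (red, right of 0) after POM121 siRNA minus control, by gene list with the number tested in brackets, in 22Rv1DR (left) and DU145DR (right). In 22Rv1DR SR members (7 of 12 lower), hnRNP members (15 of 25) and the core spliceosome (32 of 48) have the longest bars to the left, beside 20.4% of all symbols tested.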

How the data were processed

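Poly(A) RNA of 12 libraries in 6 groups was sequenced on 2 lanes each (TruSeq version-2 kit, which does not keep strand, per the labels' protocols). The deposited table holds log2 FPKM per gene symbol, and values at or under 1 FPKM are listed as 0. TopHat, Cufflinks, hg19 and mm10 are named, with no role, per the submitters' processing notes. No counts are given, so depth is unknown, and the number of libraries limits precision. The lanes of a library were averaged, and 13622 of 25277 symbols, those with both lanes above the floor in at least 2 libraries, were fitted in limma 3.58.1 (R 4.3.3) over all 12 libraries, with no pseudocount added and p-values adjusted over all symbols tested (threshold 0.05). Python 3.11.15, pandas 2.3.3, numpy 2.4.6 and matplotlib 3.10.9 made the other tables and figures.

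The members and gene lists were chosen with earlier results of these data known. Values in each library are given for members past the threshold (up to 8 highest and 8 lowest log2 fold changes in each line, up to 5 each way in the other comparisons), the 5 members with the highest mean, symbols that are not protein coding or share reads by name, POM121, POM121C, MYC, TNPO1 and TNPO3, and fold changes for up to 3 genes with the smallest p of each list. Libraries with the same number share only a number: the labels do not pair them, and the correlations of their deviations ran from -0.10 to 0.13. Alternatives changed the pseudocount, filter, normalization, lanes, samples in the fit, limma options and repeated symbols, added a replicate block, or left out libraries. Leaving out 1 library leaves 1 in its group, which is then assumed to vary like the others.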

Additional observations from a re-analysis of the deposited data

Results flagged for a closer look

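For 13 members the response to POM121 siRNA differed between the lines, by the interaction in limma (22Rv1DR effect minus DU145DR effect, log2, adjusted p under 0.05). POM121 itself was lowered further in 22Rv1DR, so line and depth of knockdown cannot be told apart here. HNRNPH2 differed by -0.65, SRSF3 by -0.41, HNRNPD by -0.34 and HNRNPAB by -0.26. HNRNPA1 followed at -0.25, HNRNPUL2-BSCL2 at -0.24, and SRSF2, SRSF1 and HNRNPDL at -0.23 each. HNRNPA1L2 differed by -0.22, SRSF6 by -0.21 and HNRNPA0 by -0.19, and SRSF4 by 0.20 in the other direction. Leaving out single libraries ended the calls of all but HNRNPH2, SRSF3, HNRNPD and HNRNPAB: SRSF2, HNRNPUL2-BSCL2 and HNRNPA1L2 lost them without any 1 of 10 libraries (adjusted p up to 0.134, 0.153 and 0.164), HNRNPDL without 1A, 2A or 4A (up to 0.0706), SRSF6 without 2A or 4A (up to 0.0698) and HNRNPA0 without any 1 of 8 (up to 0.0953). HNRNPM, at -0.46 ± 0.19, did not pass (adjusted p = 0.101), but passed without 4C (-0.30, adjusted p = 0.000781) and without 5C (-0.62, adjusted p = 3.11e-05).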

How the results depend on the processing

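Counts in this paragraph are of members called. The number called over all symbols in the same settings is not set beside them, here or where libraries were left out above. A change in calls over the whole table is thus not separated from a change in the members. Over single libraries left out they ran, in 22Rv1DR, from 18 to 30 for siPOM121, 16 to 26 for construct 2, 15 to 28 for construct 1 and 1 to 17 for construct 2 minus construct 1, and in DU145DR from 4 to 16, 1 to 11, 3 to 14 and 0 to 1. They ran from 4 to 21 for the line difference and from 26 to 34 between controls. With each line fitted alone they were 15 (siPOM121), 11 (construct 2) and 1 (construct 2 minus construct 1) in 22Rv1DR, and 10 for construct 1 in DU145DR. Single lanes gave 5 (lower-numbered) and 5 (higher-numbered) for construct 2 minus construct 1 in 22Rv1DR, and 6 (lower-numbered) for siPOM121 in DU145DR. Median centring gave 8 for construct 1 in DU145DR. Without both 22Rv1DR construct 2 libraries, an alternative chosen after seeing the data, the counts were 16 for siPOM121 and 14 for construct 1 in DU145DR and 28 for construct 1 in 22Rv1DR. With the replicate block siPOM121 gave 1 higher and 22 lower in 22Rv1DR (SRSF4 and HNRNPLL lost) and 1 higher and 9 lower in DU145DR (HNRNPDL lost; HNRNPH2 gained at 0.26, adjusted p = 0.00789, and 0.0159 and 0.0189 with construct 2 and construct 1 alone), and the line difference 1 higher and 9 lower (SRSF1, SRSF2, HNRNPA0 and HNRNPUL2-BSCL2 lost; HNRNPUL2 gained, adjusted p = 0.0462).

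With quantile normalization the symbols called higher and lower over the whole table were 2610 and 2556 in 22Rv1DR (2068 and 2774 as reported), 1812 and 1698 in DU145DR (1977 and 1276) and 1777 and 1834 for the line difference (1217 and 2160), and members were 3 higher and 22 lower in 22Rv1DR, 1 and 8 in DU145DR (0 and 10), and 2 and 8 for the line difference (1 and 12). Median centring gave 2764 and 2471 in 22Rv1DR and 1732 and 1947 for the line difference, and moved the median of all symbols between controls to 0.12, against -0.02. HNRNPH1 turned to -0.0137 between controls with quantile normalization. HNRNPA2B1 was called in opposite directions between controls with quantile normalization and with median centring. With 2 libraries a group and no counts, small differences such as that of HNRNPM in DU145DR depend on the shared spread. The causes were not tested.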
